A study of Homo sapiens with 16 samples.

Results

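Nascent transcription through gene bodies was compared between Kasumi-1 cells after 2 h of SMARCA5 degradation and the same cells untreated. Kasumi-1 cells come from an acute myeloid leukaemia with the t(8;21) translocation, which fuses RUNX1 to RUNX1T1. The treated group is 3 libraries of the SMARCA5-FKBP12F36V line, in which the endogenous protein is tagged on both alleles, given 500 nM dTAG-47 for 2 h. The untreated group is 5 libraries of that tagged line at 0 h, and the labels name no vehicle for it. These 8 libraries are all those of the 2 groups, of 14 libraries in the count table and 16 samples in the series. All 10286 gene symbols of the table entered the comparison, 1 transcript each. Both groups carry the tag, the labels do not say whether the line is 1 clone, and the untagged parental line was not analysed here. The study text calls the libraries biological replicates without saying which cultures they came from, so p-values measure the spread between these libraries.

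SMARCA5, also called SNF2H, is the ATPase of the ISWI chromatin remodelling complexes. It slides nucleosomes and sets their regular spacing, also beside sites bound by CTCF, a DNA-binding protein that anchors chromatin loops. dTAG-47 joins the FKBP12F36V tag to a ubiquitin ligase, so that the tagged protein is destroyed. PRO-seq labels RNA while polymerase is making it in isolated nuclei, so gene-body reads follow transcription itself and not the stock of finished mRNA.

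The SMARCA5 gene itself carries no check of the treatment, because the tag acts on the protein. Its gene body held 87.8, 104 and 89.1 counts per 1000000 (CPM) at 2 h, against 145, 118, 97.9, 102 and 99.6 CPM untreated. Column names carry a number, called run 1, 2 or 3 here, and a letter, so that 1B is library B of run 1. Here and below, values are given in the order 1B, 2A and 2B at 2 h, and 1A, 1B, 2A, 2B and 3A untreated. The log2 fold change was -0.26 ± 0.14 (SE), which did not pass the test (adjusted p = 0.195, edgeR quasi-likelihood test with the run as a block, Benjamini-Hochberg over all symbols, threshold 0.05). The 2 h and untreated libraries of run 2 overlapped, and the 2 h library of run 1 lay under both of its untreated libraries. All adjusted p-values of gene bodies below come from this test, and all log2 fold changes are 2 h over untreated.

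The libraries held 11199143 to 34209362 gene-body reads. Of the markers of Kasumi-1 cells 8 of 9 were listed in the table (RUNX1T1 was not), and of those of other blood cells, fibroblasts and epithelium 0 of 9, 0 of 3 and 1 of 3 were. The epithelial one was EPCAM, a surface adhesion protein, at 17.8 ± 1.14 CPM at 2 h and 29.4 ± 3.16 CPM untreated (SD, n = 3 and 5). The untreated libraries of run 1 stood apart: on the first principal component, which held 54.8% of the variance, they lay at -39.4 and -30.3, against 3.54 to 19.9 for the other 6 libraries, treated and untreated. Without them the comparison rests on run 2, whose values are given beside the main genes. Of the 137 called genes named below, 134 were also called in run 2 alone with the same sign, and NPC2, CEBPA and FDXR were not. Of all 1913 called genes 1781 were. The run 2 libraries are part of the fit that chose these genes, so this is no separate check. When each of the 8 libraries was left out in turn, 63 of the 137 were called in every fit and 74 lost the call in 1 or more. Run 3 holds 1 untreated library and no 2 h library, and adds nothing to the fold changes.

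After 2 h, 1913 of 10286 genes (18.6%) passed the test, of which 978 rose (9.51% of all genes) and 935 fell (9.09%). With upper-quartile scaling in place of TMM the split was 1343 rises and 711 falls. The changes were small for most of them: the median size among called genes was 0.52 on the log2 scale, and 165 exceeded 2-fold, 120 of them rises and 45 falls. With genes averaging under 100 counts set aside, the highest folds of the rises belonged to 4 enzymes of cholesterol synthesis (MVD, MVK, MSMO1 and HMGCS1), and the deepest falls to a mixed group led by PTPRF, a receptor-type tyrosine phosphatase. Of the 1913 calls, 399 (20.9%) were kept in each of the 8 fits that leave out 1 library, 157 rises and 242 falls. Above 2-fold 86 of 165 were kept, 53 rises and 33 falls. Of the 10304 transcripts in the authors' deposited table, 4125 passed, and 1910 of the 1913 genes had the same direction and call there. That table rests on the same libraries and is no outside check. When 1 library was left out the lowest count, 480, came without treated 2B, and the counts without untreated 1B, untreated 2B, untreated 2A and treated 1B were 736, 732, 1101 and 1267.

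Each run was also fitted alone. Run 1, with 1 library at 2 h and 2 untreated, called 2772 genes (26.9%), and run 2, with 2 and 2, called 3432 (33.4%). Over all genes the fold changes of the runs had a Spearman correlation of 0.46 and the same sign in 67.1%, a description over genes that share the libraries. Of the genes called in run 2, 78.0% had the same sign in run 1, and of those called in run 1, 81.8% had the same sign in run 2. Both runs called 593 rises and 645 falls, and 123 genes were called in opposite directions. The fold changes were wider in run 1, with an SD over genes of 0.56 against 0.32 in run 2, and 1574 of 1912 called genes (82.3%) had the larger change there.

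**Figure D1:**
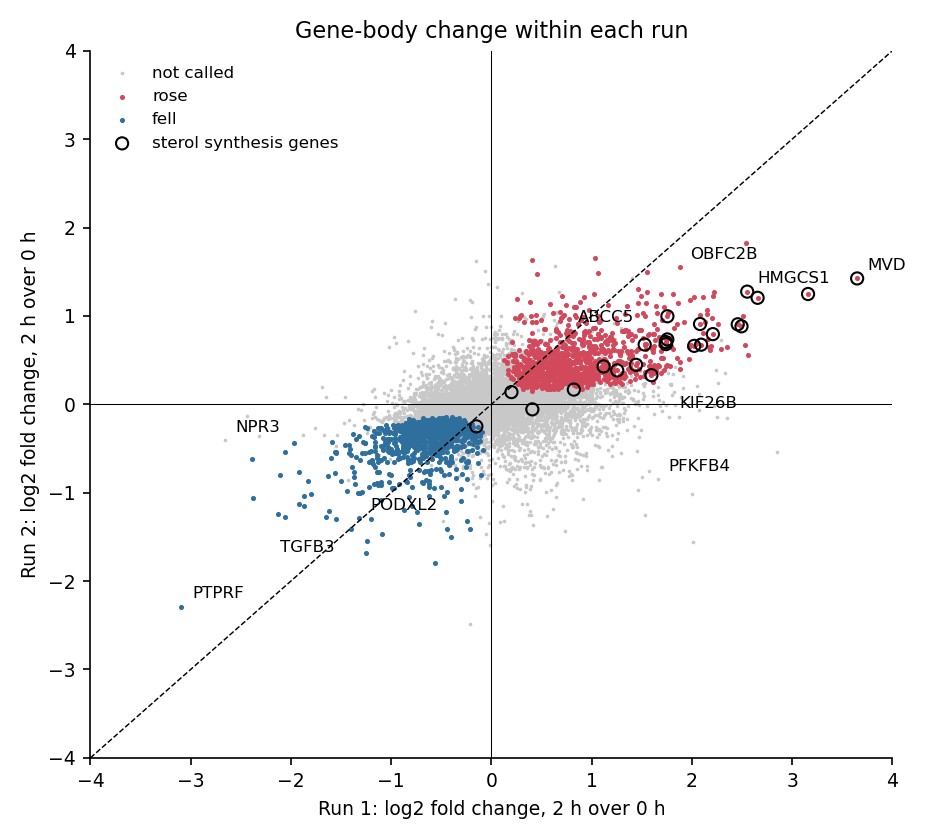
Log2 fold change of each gene body, 2 h over untreated, in run 1 (x axis) against run 2 (y axis); each point is a gene, coloured by its call with the run as a block. Called genes lie in the quadrants of equal sign and spread further along the run 1 axis, and the sterol genes sit far to the right.

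PTPRF had the deepest fall of the genes named here. It was read at 5.47, 7.41 and 8.75 CPM at 2 h, against 42.1, 51.3, 38.3, 41.3 and 53.9 CPM untreated, so that every 2 h library was far under every untreated library. The means were 7.21 ± 1.65 and 45.4 ± 6.79 CPM (SD, n = 3 and 5), and the log2 fold change was -2.62 ± 0.19 (adjusted p = 0.00167), -3.09 in run 1 and -2.29 in run 2. PODXL2, a sialomucin of the CD34 family that binds selectins, had 32.9, 30.4 and 32.9 CPM at 2 h, against 77.5, 86.5, 75.4, 79.6 and 82.2 CPM untreated. Its groups were far apart and even within themselves, and its change of -1.30 ± 0.090 (adjusted p = 0.00167) was alike in run 1 (-1.32) and run 2 (-1.29). SFXN1, a mitochondrial serine transporter, had 60.0, 69.3 and 67.8 CPM at 2 h, against 130.3, 127, 129, 129.8 and 101 CPM untreated. All 2 h libraries were under all untreated ones, and the change was -0.99 ± 0.080 (adjusted p = 0.00232, with -1.10 in run 1 and -0.92 in run 2). TGFB3, a ligand of the TGF-beta family, had 4.33, 3.33 and 3.76 CPM at 2 h, against 10.5, 12.4, 9.53, 9.37 and 9.51 CPM untreated. Each 2 h library was lower than all untreated ones, and the change was -1.41 ± 0.16 (adjusted p = 0.00436), -1.41 in run 1 and -1.41 in run 2.

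TBCEL, a relative of the tubulin folding cofactors, A2LD1, a gamma-glutamylamine cyclotransferase now named GGACT, and GGT7, of the gamma-glutamyltransferase family, were among the 15 largest falls. Their promoters are shown because the core letters of the CTCF motif, AGGGGGCGC on either strand, occurred in each. The sequences are the 150 bases before the RefSeq start (GRCh38.p14), read 5′ to 3′ in the direction of the gene, with the CTCF core letters or their reverse complement in capitals. TBCEL lies on the plus strand (chr11:121023952-121024101), GGT7 on the minus strand (chr20:34872857-34873006) and A2LD1 on the minus strand (chr13:100588790-100588939).
TBCEL: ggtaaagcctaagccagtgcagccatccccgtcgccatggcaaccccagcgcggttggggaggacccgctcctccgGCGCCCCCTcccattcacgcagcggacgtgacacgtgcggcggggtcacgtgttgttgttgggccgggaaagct
GGT7: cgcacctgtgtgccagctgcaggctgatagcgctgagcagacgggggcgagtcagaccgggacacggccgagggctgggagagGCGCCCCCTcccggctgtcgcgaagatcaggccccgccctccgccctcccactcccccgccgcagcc
A2LD1: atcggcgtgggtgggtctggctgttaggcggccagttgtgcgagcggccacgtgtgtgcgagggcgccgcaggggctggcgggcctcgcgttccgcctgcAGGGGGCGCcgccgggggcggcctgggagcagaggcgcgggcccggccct

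The matches begin 74, 67 and 50 bases before the start in TBCEL, GGT7 and A2LD1. In windows of 300 bases, 250 before and 50 after the start, the letters occurred in 2.95% of the 8267 genes with a RefSeq promoter of the same symbol. They occurred in 1.40% of genes that rose and in 4.11% of genes that fell. Of the falls above 2-fold with a promoter 4 of 35 (11.4%) held them, and of such rises 0 of 93. The 4 were these 3 genes and FAM59B (log2 fold change -1.03, adjusted p = 0.0302, named after its value was seen), which was called in 4 of the 8 fits that leave out 1 library, with a range of -1.51 to -0.80, and not without untreated 1B, 2A or 2B or treated 2B. A match of letters is no measurement of CTCF binding, and none was made here. The letters CACGTG, the E-box core, which reads alike on both strands, occurred in 11.0% of all these promoters and in 10 of the 35 falls (28.6%).

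TBCEL had 15.8, 13.8 and 13.9 CPM at 2 h, against 71.0, 60.3, 32.8, 34.3 and 44.4 CPM untreated. The 2 h libraries were close to each other and under all untreated ones, of which those of run 1 were the highest, and the change was -1.601 ± 0.17 (adjusted p = 0.00436, with -2.06 in run 1 and -1.27 in run 2). A2LD1 had 16.6, 16.8 and 17.2 CPM at 2 h, against 57.5, 64.2, 38.4, 37.1 and 41.9 CPM untreated, a change of -1.45 ± 0.16 (adjusted p = 0.00436, with -1.87 in run 1 and -1.15 in run 2). GGT7 had 6.42, 4.22 and 5.26 CPM at 2 h, against 18.2, 22.2, 11.1, 12.1 and 19.1 CPM untreated, a change of -1.45 ± 0.17 (adjusted p = 0.00448, with -1.65 in run 1 and -1.28 in run 2). In none of the 3 did the groups overlap. E2F5, a repressive member of the E2F family, had 10.9, 13.0 and 13.1 CPM at 2 h, against 50.6, 45.4, 30.8, 31.5 and 34.4 CPM untreated, and fell likewise (-1.61 ± 0.19, adjusted p = 0.00469, with -2.13 in run 1 and -1.25 in run 2), with every treated library under every untreated one.

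The other large falls had log2 fold changes of -1.59 (ZNF711, a zinc finger protein), -1.47 (CCDC71L), -1.43 (FJX1, a secreted protein), -1.41 (P2RY2, a nucleotide receptor), -1.40 (NEK3, a kinase), -1.38 (ZNF395), -1.36 (SPRY1, a feedback inhibitor of growth factor signalling) and -1.31 (GUCY1A3, a subunit of the nitric oxide receptor). These 8 with PTPRF, PODXL2, TGFB3, TBCEL, A2LD1, GGT7 and E2F5 were the 15 largest falls once genes averaging under 100 counts were set aside, and 14 of the 15 were called in every fit that leaves out 1 library. GUCY1A3 was called in 5 of those 8 fits, with a range of -1.59 to -0.63, and lost its call without untreated 1B, untreated 2B or treated 2B.

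**Figure D2:**
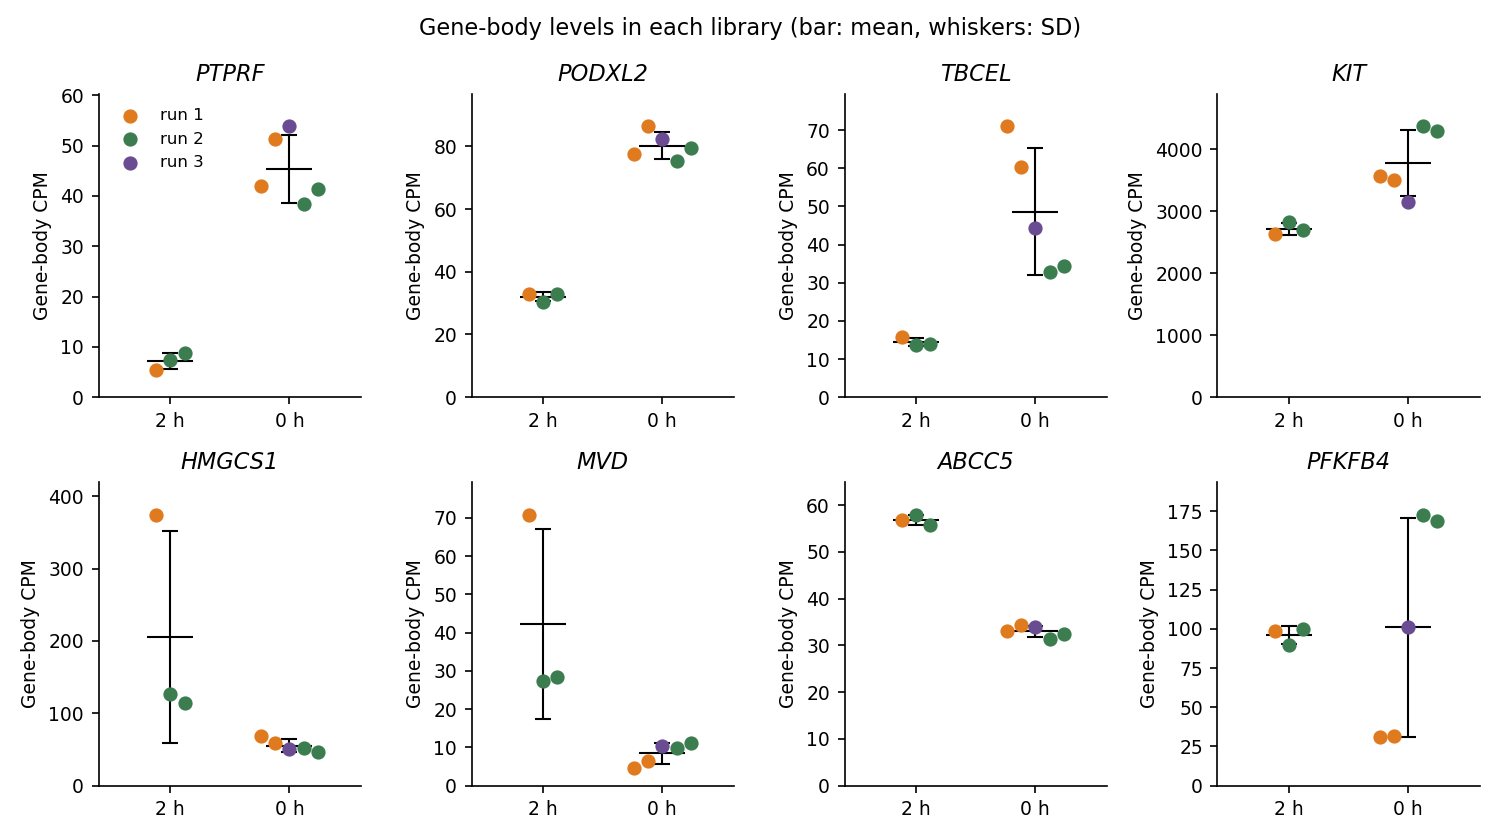
Gene-body CPM of 8 genes in each library, the 3 libraries at 2 h on the left of each panel and the 5 untreated ones on the right, coloured by run, each panel on its own axis from 0. PTPRF falls in every 2 h library, MVD rises most in the 2 h library of run 1, and for PFKFB4 the untreated libraries of run 1 and run 2 lie on opposite sides of the 2 h libraries. Bars are group means and whiskers their SD.

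The mevalonate pathway builds the isoprene units from which squalene and then cholesterol are made, and the SREBP2 factor, encoded by SREBF2, switches its genes on when sterols run low. Of its 11 genes measured 8 rose and 0 fell (72.7%, against 18.6% of all genes called). The median log2 fold change was 1.28, against 0.016 over all genes. The median was 2.08 in run 1 and 0.67 in run 2. MVD, the decarboxylase that makes isopentenyl diphosphate, had 70.8, 27.3 and 28.4 CPM at 2 h, against 4.73, 6.56, 9.85, 11.1 and 10.3 CPM untreated. The 2 h library of run 1 was far above the other 2 h libraries, which were in turn above all untreated ones. The means were 42.2 ± 24.8 and 8.52 ± 2.74 CPM (SD, n = 3 and 5), and the change was 2.42 ± 0.40 (adjusted p = 0.00928), 3.65 in run 1 and 1.42 in run 2. HMGCS1, which makes HMG-CoA, had 375, 127 and 114 CPM at 2 h, against 69.0, 58.8, 52.3, 47.1 and 50.2 CPM untreated, a change of 1.83 ± 0.23 (adjusted p = 0.00499, with 2.55 in run 1 and 1.27 in run 2). Here, too, the 2 h library of run 1 was the highest and no 2 h library reached down to the untreated ones.

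Mevalonate kinase, MVK, had 115, 56.0 and 55.4 CPM at 2 h, against 13.2, 12.4, 23.0, 24.1 and 26.2 CPM untreated, a change of 2.09 ± 0.33 (adjusted p = 0.00843, with 3.16 in run 1 and 1.25 in run 2). Squalene epoxidase, SQLE, had 191, 95.6 and 89.4 CPM at 2 h, against 52.7, 37.0, 55.9, 60.4 and 61.2 CPM untreated, a change of 1.28 ± 0.26 (adjusted p = 0.0166, with 2.09 in run 1 and 0.67 in run 2). For both the groups were apart, and the 2 h library of run 1 was the highest, as for MVD. Further rises were 1.42 (ACAT2, acetyl-CoA thiolase), 0.87 (FDPS, farnesyl diphosphate synthase) and 0.86 (FDFT1, squalene synthase). IDI1, the isomerase, did not pass (0.44, adjusted p = 0.0549), and 45.9% of its listed interval is shared with another gene. PMVK (0.14) and GGPS1 (0.16) did not pass either. Of the 11, 6 were called as rises without untreated 1B and 7 to 9 without any other 1 library; FDPS and FDFT1 lost the call in the first.

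The later enzymes, which turn squalene into cholesterol, rose as well. Of 12 measured 11 rose and 0 fell (91.7%, against 18.6% of all genes). The median was 1.16, or 1.75 in run 1 and 0.69 in run 2. MSMO1, the methylsterol oxidase, had 125, 60.2 and 53.5 CPM at 2 h, against 21.4, 18.1, 24.1, 25.3 and 30.4 CPM untreated, a change of 1.84 ± 0.26 (adjusted p = 0.00616, with 2.66 in run 1 and 1.205 in run 2). CYP51A1, lanosterol demethylase, had 104, 59.5 and 55.3 CPM at 2 h, against 32.8, 28.5, 29.2, 28.4 and 33.1 CPM untreated, a change of 1.32 ± 0.16 (adjusted p = 0.00469, with 1.76 in run 1 and 0.996 in run 2). In both genes the groups were apart in either run. Further rises were C14orf1 (1.602, a scaffold of sterol enzymes), DHCR7 (1.58), LSS (1.25), HSD17B7 (1.16), NSDHL (1.15), EBP (1.05), SC5DL (0.76) and TM7SF2 (0.72). LBR, a sterol reductase that is also a receptor of the nuclear lamina, was the member not called (-0.21, adjusted p = 0.0737). Of the 12, 7 were called as rises without untreated 1B, 8 without treated 1B, and 9 to 11 in the other fits that leave out 1 library.

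The promoters of MVD, MVK, HMGCS1 and MSMO1 are shown because each holds the CCAAT box, the site of NF-Y, a factor known to act together with SREBPs. Capitals mark CCAAT or its reverse complement ATTGG in the 150 bases before the RefSeq start (GRCh38.p14), read 5′ to 3′ along the gene. MVD lies on the minus strand (chr16:88663092-88663241), MVK on the plus strand (chr12:109573644-109573793), HMGCS1 on the minus strand (chr5:43313413-43313562) and MSMO1 on the plus strand (chr4:165327519-165327668).
MVD: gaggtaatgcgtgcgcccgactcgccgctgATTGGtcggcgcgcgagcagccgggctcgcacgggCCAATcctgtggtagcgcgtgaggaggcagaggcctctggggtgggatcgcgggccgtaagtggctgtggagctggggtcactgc
MVK: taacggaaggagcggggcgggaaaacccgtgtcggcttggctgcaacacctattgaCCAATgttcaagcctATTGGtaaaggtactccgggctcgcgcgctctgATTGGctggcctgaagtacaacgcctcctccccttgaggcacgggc
HMGCS1: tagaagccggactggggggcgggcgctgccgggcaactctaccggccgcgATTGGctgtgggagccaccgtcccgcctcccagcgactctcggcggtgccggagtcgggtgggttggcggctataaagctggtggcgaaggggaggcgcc
MSMO1: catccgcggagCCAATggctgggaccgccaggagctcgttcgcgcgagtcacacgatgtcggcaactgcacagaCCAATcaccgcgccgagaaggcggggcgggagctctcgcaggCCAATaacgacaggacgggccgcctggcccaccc

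Searched on both strands of the 300-base windows, CCAAT occurred in 37.7% of all 8267 promoters, in 44.9% of genes that rose and in 27.2% of genes that fell. Of mevalonate genes with a promoter 4 of 7 held it, and of late sterol genes 9 of 11. It also occurred in 54.8% of the 93 rises above 2-fold and in 31.4% of the 35 falls above 2-fold. The letters TCACNCCAC, written for the sterol regulatory element, occurred in 1.03% of all promoters and in 0 of the 7 and 0 of the 11. That says only that these letters are not in these windows. They occurred in 1 of 11 promoters of the sterol sensing list, that of SREBF2. Of genes that rose 0.51% held them and of genes that fell 1.06%, with 2 of the 93 rises and 0 of the 35 falls above 2-fold.

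The genes that sense and take up sterol were mixed. Of 12 measured 6 rose and 1 fell (58.3%, against 18.6% of all genes), with a median of 0.22. The rises numbered 1 without untreated 1B, 3 without treated 1B, and 4 to 6 in the other fits that leave out 1 library. INSIG1, which holds SREBPs in the endoplasmic reticulum when sterol is plentiful, had 221, 99.9 and 90.9 CPM at 2 h, against 48.8, 43.3, 51.9, 49.6 and 54.9 CPM untreated, a change of 1.496 ± 0.24 (adjusted p = 0.00840, with 2.26 in run 1 and 0.91 in run 2). The groups were apart in each run. The rises of STARD4 (0.97) and NPC1 (0.56), which move sterol inside cells, of NPC2 (0.84) and of SREBF2 (0.37) were smaller. The gene that fell was MYLIP, a sterol-induced ubiquitin ligase, with 31.3, 53.1 and 57.7 CPM at 2 h, against 104, 89.8, 93.5, 102 and 65.6 CPM untreated. Every 2 h library was under every untreated one, with the lowest value in run 1, and the change was -1.14 ± 0.17 (adjusted p = 0.00692, with -1.63 in run 1 and -0.82 in run 2).

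Fatty acid synthesis had a smaller share of calls than the sterol lists. Of 13 genes 3 rose and 1 fell (30.8%, against 18.6% of all genes). The median was 0.38, or 0.76 in run 1 and 0.11 in run 2. The rises were SCD (0.89) and FADS2 (0.88), both desaturases, and ELOVL1 (0.65). ELOVL6, another elongase, fell (-0.39). The rises numbered 0 without untreated 1B, 1 without treated 2B and 6 without treated 2A, and ELOVL6 lost its call without untreated 1B, untreated 2A or treated 2B.

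**Figure D3:**
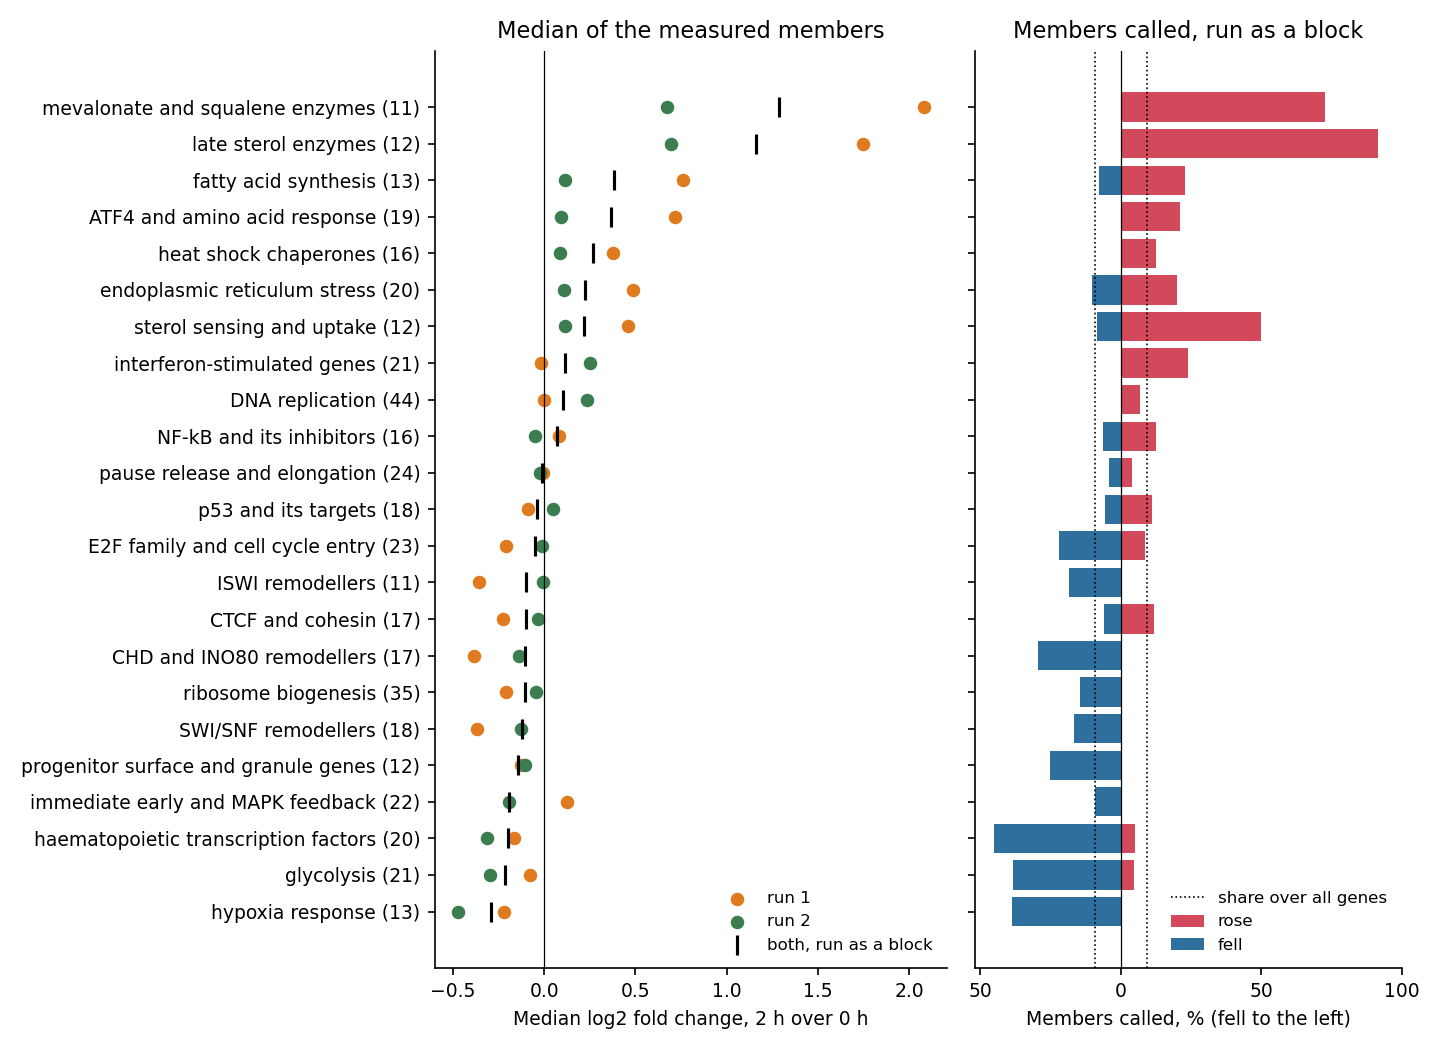
Left, median log2 fold change of each gene list in run 1, in run 2 and with the run as a block. The vertical line is at 0. Right, the percent of measured members called as rises or falls with the run as a block. Dotted lines mark the share over all genes. The sterol enzymes have the highest medians in both runs and are larger in run 1, and the glycolysis and hypoxia lists are lower in run 2.

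Among the other rises, some were of like size in the 2 runs. OBFC2B, a single-stranded DNA-binding protein of the DNA damage response, had 12.2, 13.0 and 12.03 CPM at 2 h, against 3.996, 2.62, 3.58, 5.14 and 6.67 CPM untreated. Its 2 h libraries agreed closely and were all above the untreated ones, and the change was 1.69 ± 0.20 (adjusted p = 0.00483), 1.88 in run 1 and 1.55 in run 2. SGCB, beta-sarcoglycan, had 18.9, 27.1 and 23.0 CPM at 2 h, against 5.19, 5.58, 9.79, 11.5 and 6.28 CPM untreated, a change of 1.48 ± 0.16 (adjusted p = 0.00436, with 1.81 in run 1 and 1.25 in run 2). ABCC5, an efflux pump of cyclic nucleotides, had 56.8, 58.0 and 55.7 CPM at 2 h, against 33.0, 34.3, 31.5, 32.4 and 33.9 CPM untreated, a change of 0.80 ± 0.087 (adjusted p = 0.00436, with 0.76 in run 1 and 0.84 in run 2). The untreated SGCB values differed between runs, whereas those of ABCC5 lay within a few CPM of each other. SKI, a corepressor of TGF-beta signalling, had 263, 216 and 237 CPM at 2 h, against 139, 171, 118, 126 and 155 CPM untreated, a change of 0.84 ± 0.092 (adjusted p = 0.00436, with 0.76 in run 1 and 0.89 in run 2), with no overlap.

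FMNL3, a formin that shapes actin, had 94.9, 61.6 and 64.0 CPM at 2 h, against 51.6, 55.0, 30.8, 32.0 and 44.2 CPM untreated, a change of 0.93 ± 0.088 (adjusted p = 0.00349, with 0.83 in run 1 and 1.01 in run 2). All 2 h libraries were above all untreated ones, and both groups were higher in run 1 than in run 2. PRPF40B, a splicing factor that also rose (1.53), shares 9.68% of the listed FMNL3 interval, so reads there cannot be given to either gene with certainty. TDRKH (1.52), known from the piRNA pathway of the germ line, NOL3 (1.503), an inhibitor of cell death, LOC728743 (1.45) and GBGT1 (1.199), a glycosyltransferase, rose as well. So did MMAB (1.47), a cobalamin adenosyltransferase whose listed interval lies next to that of MVK, and PCYT2 (1.48), of phosphatidylethanolamine synthesis. PCYT2 was called in 5 of the 8 fits that leave out 1 library, with a range of 0.67 to 1.77, and lost its call without untreated 1A, untreated 1B or treated 2B.

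Glycolysis turns glucose into pyruvate, and low oxygen raises many of its genes through the HIF1 factor. Of 21 glycolysis genes 8 fell and 1 rose (42.9%, against 18.6% of all genes). The median was -0.21, or -0.075 in run 1 and -0.30 in run 2. PGM1, phosphoglucomutase, had 25.7, 32.2 and 31.0 CPM at 2 h, against 60.4, 65.2, 64.7, 61.1 and 55.8 CPM untreated. The groups were far apart in each run, and the change was -1.11 ± 0.10 (adjusted p = 0.00349, with -1.29 in run 1 and -0.99 in run 2). SLC2A1, the glucose transporter GLUT1, had 60.9, 59.3 and 62.2 CPM at 2 h, against 81.3, 99.9, 121, 113 and 96.1 CPM untreated, a change of -0.79 ± 0.11 (adjusted p = 0.00621, with -0.57 in run 1 and -0.95 in run 2), with every 2 h library lower. PFKP (-0.55), GPI (-0.42), ENO1 (-0.41), HK2 (-0.39) and LDHA (-0.26), enzymes of the pathway, and SLC16A1 (-0.41), a lactate transporter, fell by less, and PGAM1 (0.45), phosphoglycerate mutase, rose. The falls numbered 3 without untreated 1B, untreated 2B or treated 2B, 4 without untreated 2A and up to 10 in the other fits. Run 1 alone had 5 falls and 4 rises, and run 2 alone 14 falls and 1 rise.

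Among 13 genes of the hypoxia response 5 fell and 0 rose (38.5%, against 18.6% of all genes), with a median of -0.29. PDK1, a pyruvate dehydrogenase kinase, had 114, 124 and 116 CPM at 2 h, against 228, 234, 208, 206 and 164 CPM untreated. No 2 h library reached an untreated one, and the change was -0.88 ± 0.079 (adjusted p = 0.00349), -1.02 in run 1 and -0.79 in run 2. The others were ERO1L (-0.73), an oxidase of the endoplasmic reticulum, KDM3A (-0.68), a histone demethylase, BNIP3L (-0.66), a receptor of mitophagy, and MXI1 (-0.35), a MYC antagonist. HIF1A itself did not pass (-0.28, adjusted p = 0.0625). With a correction for gene length, 7 glycolysis falls and 5 hypoxia falls were called, and the hypoxia falls numbered 4 to 8 when 1 library was left out, the most without treated 1B.

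Among transcription factors of blood cells, falls outnumbered rises. Of 20 measured 9 fell and 1 rose (50.0%, against 18.6% of all genes), and leaving out 1 library left 7 to 10 falls. The median was -0.20, or -0.16 in run 1 and -0.31 in run 2. ZEB2, a zinc finger repressor, had 939, 1252 and 1208 CPM at 2 h, against 2547, 2293, 2176, 2194 and 1557 CPM untreated, a change of -1.04 ± 0.11 (adjusted p = 0.00436, with -1.37 in run 1 and -0.83 in run 2). RUNX1, whose gene is broken by the translocation, had 2850.3, 2958 and 3071 CPM at 2 h, against 3534, 3497, 3829.6, 3697 and 3374 CPM untreated, a change of -0.31 ± 0.049 (adjusted p = 0.00795). Both had their groups apart, and the fall of RUNX1 was small but alike in run 1 (-0.30) and run 2 (-0.32). Reads of the RUNX1 interval may come from the intact gene or, in its front part, from the fusion.

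The other falls were ELF1 (-0.55), BCL11A (-0.54), FLI1 (-0.52), ETV6 (-0.46), IKZF1 (-0.37), LMO2 (-0.31) and ERG (-0.28). CEBPA, the factor of granulocyte differentiation, was the rise (0.74, adjusted p = 0.0342), and it was called in 2 of the 8 fits that leave out 1 library. Corrected for gene length, 7 of the list fell and 0 rose.

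Of 12 surface and granule genes of progenitors 3 fell and 0 rose (25.0%, against 18.6% of all genes), with a median of -0.14. KIT, the stem cell factor receptor, had 2634, 2819.8 and 2697 CPM at 2 h, against 3559.8, 3496, 4373, 4299 and 3143 CPM untreated. All 2 h libraries were lower, and the change was -0.56 ± 0.062 (adjusted p = 0.00436, with -0.42 in run 1 and -0.65 in run 2). In bulk libraries fewer cells of a type and less RNA per cell cannot be told apart. The adhesion receptors ITGA4 (-0.68) and CD44 (-0.59) fell too, but with overlapping groups, and neither was called without untreated 1B or treated 2B. CD34, the marker of stem and progenitor cells, had 109, 77.9 and 80.5 CPM at 2 h, against 76.6, 66.6, 84.3, 79.9 and 214 CPM untreated, with run 3 far above all others, and did not pass (0.23, adjusted p = 0.253). MPO, myeloperoxidase of the granules, had 1041 ± 80.3 CPM at 2 h and 974 ± 117 CPM untreated (SD, n = 3 and 5), and did not pass (0.078, adjusted p = 0.564). EPCAM, the lone epithelial marker listed, fell by 0.74 on the log2 scale (adjusted p = 0.00826).

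In the lists of remodellers 18.2% (ISWI), 16.7% (SWI/SNF) and 29.4% (CHD and INO80) of the genes were called, against 18.6% of all genes, so the first and second were near that share. In the ISWI list 2 of 11 fell, BAZ2B (-0.39) and RSF1 (-0.25), partners of SMARCA5, and among 18 SWI/SNF genes 3 did, the ATPase SMARCA2 (-0.36), ARID2 (-0.39) and SMARCC1 (-0.27). Of the 17 genes in the CHD and INO80 list 5 fell. CHD7, an ATPase of enhancers, had 37.4, 55.9 and 55.1 CPM at 2 h, against 90.5, 84.3, 78.9, 82.5 and 61.3 CPM untreated, a change of -0.81 ± 0.14 (adjusted p = 0.0104, with -1.23 in run 1 and -0.54 in run 2). Its groups did not overlap, with the run 1 library lowest at 2 h. The others were CHD1L (-0.55), CHD6 (-0.47), CHD9 (-0.31) and ATRX (-0.40), which is in the list but belongs to neither family. These genes are long, with a median transcript of 71330 bases in the CHD and INO80 list against 24777 over all genes, and with a correction for length 0, 1 and 3 falls were called in the 3 lists, and 1 rise in the ISWI list. The falls numbered 0 to 3, 0 to 6 and 2 to 7 when 1 library was left out, the fewest in each list without treated 2B.

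Of 17 genes of CTCF and cohesin, the ring that CTCF stops along DNA, 2 rose and 1 fell, 17.6% against 18.6% of all genes. These were CDCA5 (0.38) and ESCO2 (0.40), which make cohesin stable in S phase, and STAG1 (-0.30), a subunit. With a correction for length, none of the 3 was called, and without treated 2B, untreated 1B or either untreated library of run 2 none was.

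DNA replication differed little with the run as a block: of 44 genes 3 rose and 0 fell, 6.82% against 18.6% of all genes, with a median of 0.10. They were POLA2 (0.41), of the primase complex, RFC4 (0.38), of the clamp loader, and CDC45 (0.27), of the helicase. In run 2 alone 28 rose and 1 fell, with a median of 0.24, whereas run 1 alone had 0 rises and 3 falls and a median of 0.00081. The difference between runs passed for 8 of the 44. The rises numbered 0 without treated 2B, 1 without untreated 1B or either untreated library of run 2, and 11 without treated 1B.

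In cell cycle entry, where 30.4% were called against 18.6% of all genes, 5 of 23 genes fell, E2F5 as above, CDKN1B (-0.55), an inhibitor of cyclin-dependent kinases, TFDP2 (-0.44), a partner of E2F factors, CDK6 (-0.43) and CCND2 (-0.37), and 2 rose, CCNE2 (0.56) and E2F4 (0.43). The falls numbered 1 to 6 and the rises 0 to 3 when 1 library was left out, the fewest of both without treated 2B. Among 22 immediate early and MAPK feedback genes SPRY1 and JUN (-0.81) fell and 0 rose, 9.09% of the list. The median of that list was 0.12 in run 1 and -0.19 in run 2, with 11 of the 22 higher in run 1 and 4 in run 2. Run 2 alone had 11 falls and 0 rises. The falls numbered 1 without treated 2B, 6 without treated 1B and 5 with the length correction. Of 16 NF-kB genes NFKBIE (0.57), an inhibitor, and RELA (0.41) rose and NFKB1 (-0.48) fell, 18.8% against 18.6% of all genes, and all of these lost their calls without treated 2B or untreated 1B.

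Interferon-stimulated genes gave 5 rises and 0 falls among 21 (23.8%, against 18.6% of all genes), BST2 (1.69), IFI6 (1.204), IRF7 (0.90), STAT2 (0.40) and PML (0.32). The median was 0.11, or -0.018 in run 1 and 0.25 in run 2, with 10 of the 21 higher in run 1 and 16 in run 2. The rises numbered 0 without untreated 1B, 1 without either treated B library, 2 without untreated 2B and 3 to 5 in the other fits that leave out 1 library. Of 18 p53 genes FDXR (0.69) and POLH (0.51) rose and TP53I3 (-0.58) fell, 16.7% of the list, and none of these was called without treated 2B or untreated 2B. Of 24 genes of pause release and elongation PAF1 (0.81), which binds elongating polymerase, rose and AFF1 (-0.41), the scaffold of the super elongation complex, fell, 8.33% of the list, and both were called in all fits that leave out 1 library. The shares of the p53, pause release and ribosome lists are near or under the 18.6% of all genes. In ribosome biogenesis 5 of 35 fell, NOLC1 (-0.52), WDR43 (-0.45), DDX21 (-0.43), POLR1B (-0.32) and WDR12 (-0.27), 14.3% of the list, with 1 left without treated 2B and 2 without untreated 1B.

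Of 16 heat shock chaperones 2 rose and 0 fell, which is 12.5% called, against 18.6% of all genes. DNAJB1, a partner of HSP70, had 21.5, 21.9 and 20.0 CPM at 2 h, against 10.8, 11.1, 11.5, 12.03 and 15.1 CPM untreated. The 2 h libraries were above all untreated ones, the nearest of which was run 3, and the change was 0.89 ± 0.12 (adjusted p = 0.00517, with 0.97 in run 1 and 0.83 in run 2). HSPA1A, an inducible HSP70, was low throughout, with 2.26, 2.74 and 2.39 CPM at 2 h, against 0.245, 0.523, 0.704, 0.735 and 1.78 CPM untreated. Its change was 2.18 ± 0.31 (adjusted p = 0.00621, with 2.54 in run 1 and 1.83 in run 2), uncertain because reads can be shared with the near-identical HSPA1B.

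Of 20 genes of endoplasmic reticulum stress 4 rose and 2 fell, a larger share than the 18.6% of all genes. The rises were SDF2L1 (1.22) and HERPUD1 (0.73), which help to clear misfolded proteins, SYVN1 (0.63), the ligase of that route, and ERN1 (0.32), the sensor IRE1. The falls were ATF6 (-0.39), another sensor, and EDEM1 (-0.30). Of 19 genes of the ATF4 response CHAC1 (1.73), which breaks down glutathione, SHMT2 (0.66), SLC7A5 (0.53) and PHGDH (0.37), of serine and amino acid supply, rose and 0 fell, 21.1% of the list. The median of that list was 0.72 in run 1 and 0.089 in run 2. The ATF4 rises numbered 0 without untreated 1B or either treated B library, 1 without untreated 2B and 7 without treated 2A. Those of endoplasmic reticulum stress numbered 1 without either treated B library and 2 to 4 otherwise, whereas DNAJB1 and HSPA1A kept their calls in all 8 fits.

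Fold changes moved with transcript length. With genes split by length into 5 groups of equal size, in the shortest (1061 to 8292 bases) 364 rose (17.7%) and 44 fell (2.14%), with a median log2 fold change of 0.25. In the longest (69575 to 1502100 bases) 76 rose (3.69%) and 452 fell (21.97%), with a median of -0.14. The medians were 0.35 and -0.21 in run 1, and 0.18 and -0.089 in run 2. Groups by reads per length showed no such trend, with 8.36% to 11.4% rising and 8.41% to 10.6% falling, the most of both in the group of lowest reads.

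The same measure was taken in each library. Shortest minus longest group, set against the untreated libraries of its run, was 0.56 in treated 1B, 0.19 in treated 2A and 0.33 in treated 2B. Between untreated replicates, B over A, it was 0.28 in run 1 and 0.00085 in run 2. Taken against the mean of all libraries, the measure was 0.20 ± 0.11 at 2 h and -0.11 ± 0.20 untreated (SD, n = 3 and 5). The difference of 0.31 gave p = 0.0893 in an exact two-sided permutation test over 56 splits, of which the smallest p possible is 0.0179. Those splits ignore the run. All 3 treated libraries were above every untreated library of their own run, the difference with the run as a block was 0.37, and splits within runs gave p = 0.0556 (exact two-sided permutation test, 18 splits, chosen after seeing the data), the smallest p they can give. With a length correction, chosen after seeing the data, 1498 genes were called, of which 1219 were among the 1913, with equal sign. The part of fragment length, of library quality or of elongation in this pattern was not tested.

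**Figure D4:**
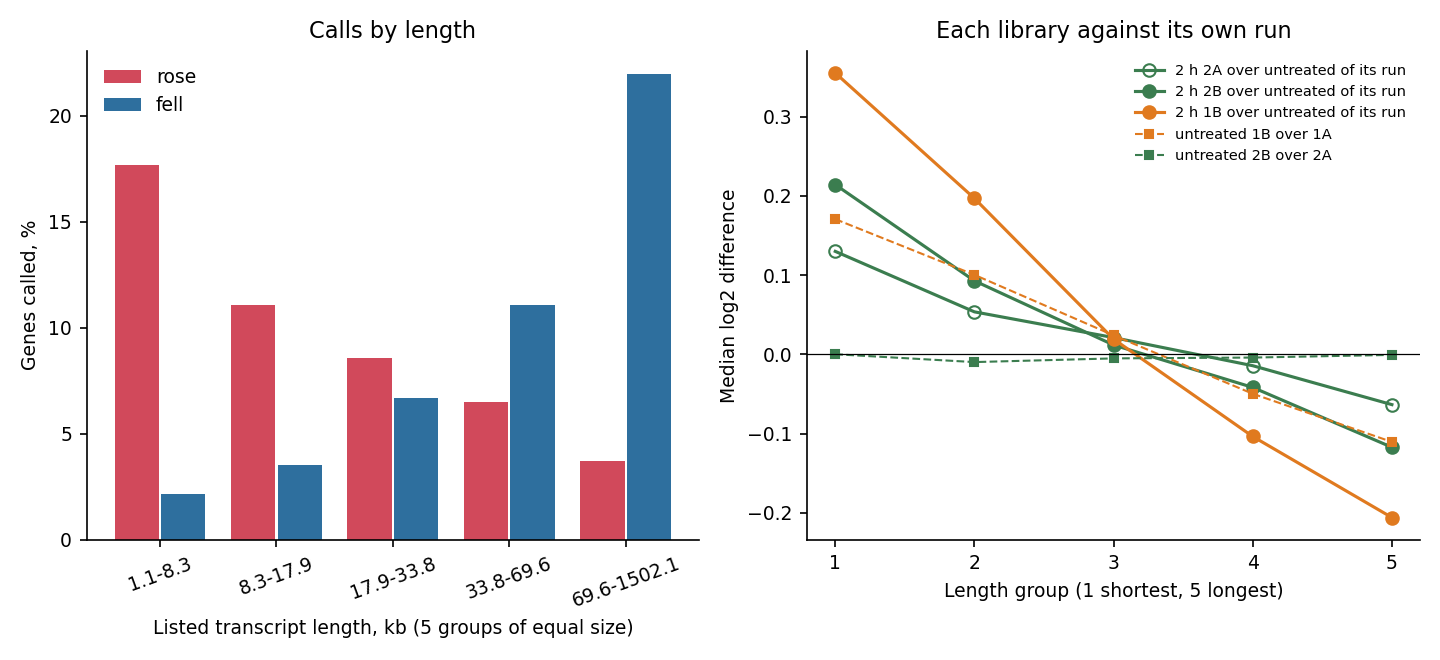
Left, percent of genes called as rises and falls in 5 groups by transcript length, shortest first; right, median log2 ratio to the same-run untreated libraries in each group, for each 2 h library and for untreated B over A. Rises thin out and falls grow with length, all 2 h libraries slope down, and so does untreated B over A of run 1.

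Promoter-proximal reads, counted by the authors in a separate table and not used for the calls above, held fewer calls: 202 of 9833 genes (2.05%), 113 rises and 89 falls. They share the libraries with the gene bodies. Over all genes 4866 of 9833 were higher at the promoter. Of gene bodies that rose 715 of 949 were higher at the promoter and 51 were called there as rises. Of gene bodies that fell 669 of 886 were lower at the promoter and 32 were called as falls, and 3 genes were called in opposite directions. At the promoter the late sterol list had a median of 0.997 with 2 rises. The mevalonate list had 0.61 with 0 rises, and the sterol sensing list 0.62 with 1 rise. The log2 fold changes there were 1.36 for MVD (adjusted p = 0.0873), 0.23 for HMGCS1 (adjusted p = 0.560) and -1.599 for PTPRF (adjusted p = 0.0696). None of these passed the edgeR quasi-likelihood test on the promoter reads. Other named genes passed that test, among them OBFC2B (2.15, adjusted p = 0.000599), PRPF40B (2.37, adjusted p = 0.00900) and INSIG1 (1.41, adjusted p = 0.0203). MSMO1 (1.42, adjusted p = 0.0368) and TBCEL (-1.49, adjusted p = 0.0368) passed as well. MVK (1.01, adjusted p = 0.121) and E2F5 (-0.94, adjusted p = 0.0703) did not. The promoter calls numbered 2 and 4 without untreated 2B and 2A, 7 without treated 1B, 12 and 14 without treated 2B and 2A, and 304 and 1104 without untreated 1B and 1A.

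The size of the response differed between runs for 1927 of 10283 genes (18.7%, run by time interaction, edgeR quasi-likelihood test with Benjamini-Hochberg adjustment), and 1706 of these had the smaller change in run 2. The count was 310, 410 and 334 without untreated 2A, untreated 2B or treated 2A, 1173 without treated 2B, and 3397 and 4973 without untreated 1A and 1B. The gap between runs was measured apart at each time as the log2 ratio of mean CPM, run 1 over run 2, with a pseudocount of 0.1. Over all genes its SD was 0.24 at 2 h and 0.46 untreated, and it exceeded 2-fold in 45 genes at 2 h and in 421 untreated. Of the 1927 genes 1718 (89.2%) had the larger gap untreated, against 72.0% of all genes. The 2 h gap rests on 1 and 2 libraries and the untreated gap on 2 and 2.

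PFKFB4, which makes a signal that speeds glycolysis, had 98.8, 89.6 and 99.6 CPM at 2 h, against 31.2, 31.3, 173, 169 and 101 CPM untreated. The 2 h libraries and untreated run 3 were alike, untreated run 1 was lower and untreated run 2 higher, so the change was 1.66 in run 1 and -0.85 in run 2, a difference of 2.51 ± 0.13 (adjusted p = 4.49e-05). KIF26B, of the kinesin family, had 237, 237 and 240.5 CPM at 2 h, against 68.5, 70.1, 272, 255 and 234 CPM untreated, a change of 1.77 in run 1 and -0.14 in run 2. RCSD1, a protein that binds an actin capping protein, had 42.3, 29.3 and 31.5 CPM at 2 h, against 206, 217, 38.6, 39.8 and 52.3 CPM untreated, a change of -2.32 in run 1 and -0.36 in run 2. In both genes only the untreated libraries of run 1 were far from the rest. NPR3, the clearance receptor of natriuretic peptides, had 26.8, 25.6 and 23.6 CPM at 2 h, against 172, 165, 32.1, 33.2 and 109.9 CPM untreated, and untreated run 3 lay between the other runs.

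Some sterol enzymes differed between runs at both times. For MVD the gap, run 1 over run 2, was 1.34 at 2 h and -0.88 untreated, and for MVK 1.04 and -0.87. For HMGCS1 it was 1.63 and 0.36. In these 3 genes the 2 h level was higher in run 1, and the untreated level was lower there in MVD and MVK. Others had a small untreated gap, such as LSS (1.33 at 2 h and -0.036 untreated), ACAT2 (1.33 and 0.15) and HSD17B7 (0.98 and -0.094). In C14orf1 (0.76 and -0.83), TM7SF2 (0.29 and -0.40) and LBR (-0.22 and -0.32) the untreated gap was the larger in size. The run 1 side of the 2 h gap is 1 library, treated 1B. The interaction passed for 9 of 11 mevalonate and 11 of 12 late sterol genes, and each of these 20 had the smaller change in run 2. What set the libraries of the runs apart, treated or untreated, was not tested.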

How the data were processed

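PRO-seq libraries of tagged Kasumi-1 cells were compared, 3 after 2 h of 500 nM dTAG-47 and 5 untreated. Reads had been handled with Trimmomatic 0.32, Bowtie2 2.2.2, SAMtools and HOMER on hg19, with DESeq and DESeq2 also named, per the submitters' processing notes. The authors deposited raw counts of gene-body and of promoter-proximal reads per transcript, and a table whose log2 fold changes and adjusted p-values are the authors' own. 84 normalized columns, 14 in each of 6 tables, were not used. From the deposited counts, 1 transcript per symbol was kept (18 dropped). CPM are counts per 1000000 of the TMM-scaled library size. Each gene was tested with edgeR 4.0.16 (R 4.3.3, limma 3.58.1, quasi-likelihood, filterByExpr, which removed 0 genes) with run and time as terms, and Benjamini-Hochberg adjustment over all symbols at 0.05. The run number in the column names is the block, and libraries of the same time and run had rank correlations of 0.992 to 0.998. SEs are the fold change over the root of F. The scripts were tested on simulated data.

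Named genes were SMARCA5, the 15 largest rises and falls with a mean of at least 100 counts and equal sign in both runs, the 5 smallest adjusted p each way, called members of each list, the 6 smallest p for the run difference and the cell markers. The members and the 23 gene lists were chosen with earlier results of these data known. Some named members are not reported here, though list counts include them. Lists are described by counts and medians, with no set test. Promoters came from a RefSeq table (GRCh38.p14) by symbol for 8267 of 10286 genes, and its starts may differ from those of the hg19 transcripts. Alternatives were DESeq2 1.42.0, other scalings and filters, all 14 libraries, no run term, each run alone, leaving out each library, and, chosen after seeing the data, a length offset, splits within runs for the length value and gene-body size factors for promoter counts. Of the 149 named genes, 15 share part of their listed interval with another gene, by the largest shares in IDI1 and PRPF40B, and strand use in counting is not given in the sources used here.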

Additional observations from a re-analysis of the deposited data

Results flagged for a closer look

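The response to 2 h of treatment differed between runs for 57 of the 149 genes named, by the run by time interaction in edgeR at an adjusted p under 0.05, against 18.7% of all genes. Values are log2 differences, run 1 minus run 2, so that a rise that was smaller in run 2 has a positive value and a smaller fall a negative one. Of the 57, 55 had the smaller change in run 2, against 1706 of 1927 over all genes, and 54 had the same sign in both runs. All 1912 called genes with values in both runs had equal sign. The 54 therefore largely follows from naming called genes. Of the genes named, 6 were chosen for the smallest p of this same test, and their values are a description.

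Among the mevalonate enzymes the differences were MVD (2.23), MVK (1.91), SQLE (1.42), HMGCS1 (1.28), FDFT1 (1.27), ACAT2 (1.18), FDPS (0.997) and IDI1 (0.66). In the later sterol enzymes they were C14orf1 (1.61), DHCR7 (1.55), MSMO1 (1.45), LSS (1.37), HSD17B7 (1.07), NSDHL (1.03), SC5DL (0.88), EBP (0.85), CYP51A1 (0.76) and TM7SF2 (0.69). The sterol sensing, uptake and desaturase genes gave INSIG1 (1.35), SCD (1.24), STARD4 (1.10), FADS2 (0.98) and NPC1 (0.62), and other genes that rose gave PCYT2 (1.87), NOL3 (1.23), TDRKH (1.123), PRPF40B (1.08), MMAB (1.07), POLH (0.76), SLC7A5 (0.68) and HERPUD1 (0.58).

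Of the genes that fell, the largest changes gave GUCY1A3 (-1.76), ZNF711 (-1.31), E2F5 (-0.88), NEK3 (-0.83), MYLIP (-0.81), PTPRF (-0.80), TBCEL (-0.78) and A2LD1 (-0.72). Blood cell factors and adhesion receptors gave CD44 (-0.83), ITGA4 (-0.80), ZEB2 (-0.54), ELF1 (-0.41) and FLI1 (-0.33), and further falls gave CHD7 (-0.69), TFDP2 (-0.56), ATF6 (-0.50), CHD6 (-0.48), WDR43 (-0.44) and DDX21 (-0.36). The genes with the smallest p for this test that are not sterol enzymes were PFKFB4 (2.51), KIF26B (1.91), NPR3 (-2.25) and RCSD1 (-1.96). A larger change in run 2 was found for FAM59B (1.11) and HK2 (0.42), both of them falls, and CD34 (0.66) was not called over both runs.

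Among the 5 untreated libraries 11 of the 149 genes had 1 library far from the other 4, where chance gives about 1 in 20. In 7 of them it was run 3: CD34 at 214 CPM (others 66.6 to 84.3), PML at 211 CPM (others 158 to 168), CDC45 at 137 CPM (others 156 to 160), SFXN1 at 101 CPM (others 127 to 130.3), NFKBIE at 41.7 CPM (others 30.4 to 32.4), CDKN1B at 27.5 CPM (others 30.6 to 31.5) and DNAJB1 at 15.1 CPM (others 10.8 to 12.03). In 3 it was untreated 1A: MPO at 766 CPM (others 1010.0 to 1044), PFKP at 357 CPM (others 404 to 416) and GPI at 241 CPM (others 307 to 315). In ESCO2 it was untreated 1B, at 23.0 CPM (others 29.97 to 31.6).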

How the results depend on the processing

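The run term, the libraries used and the threshold moved the counts; RLE size factors, no filter on low counts, a mean of at least 100 counts, all transcripts, upper-quartile scaling (2054), the length correction (1498) and DESeq2 (2430 calls) kept the total within 1.5 times of 1913. No replicate block, which drops the pairing of libraries by run, gave 547 calls (237 rises, 310 falls), of which 546 were among the 1913. All 14 libraries gave 3961 (2055 rises, 1906 falls), run 1 alone 2772 with 1528 rises, and run 2 alone 3432 (1621 rises, 1811 falls). An adjusted p under 0.01 left 293 (108 rises, 185 falls), and a fold of at least 1.5 left 739 (498 rises, 241 falls). Leaving out 1 library gave 480 to 2032 calls, 212 to 1038 rises and 268 to 994 falls. It gave 1565 to 4056 calls in run 2 alone, 310 to 4973 differences between runs and 2 to 1104 promoter calls. In run 1 alone it leaves 1 library against 1 or none, so no test was run. Promoter calls numbered 3 with no replicate block and 11 with gene-body size factors.

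Of the named genes with values under each alternative, few changed sign, and none of these was called with the run as a block. PFKFB4 reversed with no replicate block (-0.064), in run 2 alone (-0.85) and between -0.85 and 0.60 when 1 library was left out. In run 2 alone KIF26B (-0.14), PMVK (-0.057) and CD34 (-0.052) reversed, CD34 also with no replicate block (-0.22), and MPO with the length correction (-0.055). When 1 library was left out, KIF26B was between -0.14 and 0.93, PMVK between -0.059 and 0.21 and CD34 between -0.053 and 0.31. The cause of these changes was not tested. With the length correction, 29 named calls were lost.

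Depth was 11199143 gene-body reads or more per library, and values of a few CPM, as for HSPA1A, rest on the fewest reads. With 4 residual degrees of freedom and 1 library at 2 h in run 1, the spread is estimated from few libraries. Run 3 holds no 2 h library, so a within-run value there cannot be had.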

Other observations

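Calls were spread unevenly over chromosomes. Over all genes 9.51% rose and 9.09% fell. On chromosome 13, 4 of 171 genes rose (2.34%) and 26 fell (15.2%), and on chromosome 4, 19 of 364 rose (5.22%) and 58 fell (15.9%). On chromosome 19, 103 of 828 rose (12.4%) and 24 fell (2.90%), and on chromosome 17, 100 of 653 rose (15.3%) and 32 fell (4.90%). These 4 were named after their values were seen. Chromosomes differ in gene length, with which the calls also moved, and the part of length in this pattern was not tested.

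The letters of the CCAAT box also occurred in 6 of 9 promoters of the hypoxia response, a list of which 5 genes fell and 0 rose, and in 5 of 19 promoters of glycolysis genes. The E-box core occurred in 14.3% of promoters of genes that fell and in 8.88% of those that rose. These are counts of letters, and no binding was measured.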
